A study of Mus musculus with 6 samples.

Results

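Wdfy1, Fn3krp and Fn3k were examined in RNA sequencing of cultured mouse lung ILC2s (innate lymphoid cells of group 2), which release type 2 cytokines in barrier tissues such as the lung. Wdfy1 and Fn3krp were chosen by their measured counts, which differed between genotypes nearly as off and on although neither gene lies near Cd48, the targeted gene on chromosome 1. Fn3k was added as the paralogue of Fn3krp. The counts table has a column for 2 of these 3 genes, among 17438 genes in all. Fn3k, looked for under this symbol and its older one, was not analysed here.

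The study compared 3 wild-type (WT) samples with 3 samples carrying the targeted allele B6.129S4-Cd48tm1Rsr/EpaulJ (Cd48 KO), whose name gives 129S4 as the donor strain and B6 as the background. Both groups share the tissue (lung), the strain label CB57BL/6, which names no substrain, the sort for ILC2s and treatment with IL-33. The labels do not say whether samples came from separate animals, pools or cultures, nor whether the WT mice were littermates of the KO, so p-values measure the spread between these 6 samples only, and that spread may be technical. The design text speaks of duplicates, and 3 samples of each genotype were given.

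WDFY1 is a protein of early endosomes. Its FYVE domain binds the lipid phosphatidylinositol 3-phosphate, and its WD repeats bind other proteins. It is known as an adaptor that brings TRIF, a signalling adaptor of Toll-like receptors (TLRs), to TLR3 and TLR4. FN3K and its relative FN3KRP are small-molecule kinases of protein repair: sugars attach to proteins without an enzyme (glycation), and phosphorylation of the attached sugar makes it fall off. FN3K acts on fructosamines as well as related adducts, and FN3KRP on ribulosamines and psicosamines.

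Levels are given in counts per 1000000 of a scaled library (CPM). Library totals ran from 14928623 to 27450400 deposited counts. WT1 stood apart: across genes, which are not independent replicates, the log2 CPM values of 2 libraries had a Pearson's r of 0.922 to 0.932 where WT1 was one of them and of 0.980 to 0.988 otherwise. Where leaving WT1 out moved a log2 fold change named here by over 1.5 times, the value without it is given too. Cd48 was at 58.2, 46.6 and 41.6 CPM in the WT libraries and at 4.52, 5.60 and 4.403 CPM in the KO libraries, so the target was low in each library labelled KO. All 13 ILC2 markers were measured, at a summed 11850 to 15880 CPM in WT and 13550 to 14380 CPM in KO. Of 6 epithelial markers all 6 were measured, at 30.2 to 69.8 CPM in WT and 9.90 to 23.3 CPM in KO. Of 6 T cell markers 4 were measured, at 25.7 to 43.8 and 13.7 to 15.8 CPM, nearly all of it Cd3g, while Trac stayed at or below 0.349 CPM. Of 6 macrophage and monocyte markers 5 were measured, at 8.94 to 27.5 and 5.87 to 15.2 CPM. Of 4 endothelial markers 2 were measured, at 29.1 to 40.2 and 40.1 to 41.9 CPM, and of 4 B cell markers 2, at 14.1 to 19.97 and 12.2 to 17.2 CPM. The endothelial sum was nearly all Pecam1, while Vwf stayed at or below 0.5645 CPM. The B cell sum was nearly all Cd79b, while Cd79a stayed at or below 0.2793 CPM. NK, mast cell and fibroblast markers each summed to at most 1.47 CPM. The sums of T cell and epithelial markers were lower in each KO library than in each WT library. For single genes, the groups did not overlap, in either direction, for 19.3% of all tested genes. Without WT1, edgeR called the T cell marker Cd3g and the epithelial marker Epcam lower in KO, in a fit that called 0.652% of tested genes lower. The same fit called 2 of the 13 ILC2 markers, Il2ra and Il5, higher in KO, and 1.17% of tested genes higher. Their log2 fold changes were 0.31 and 0.29 in that fit, and 0.32 and -0.02 with all libraries. The part of these markers in the results was not tested.

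Each gene was first placed on the GENCODE M21 annotation of GRCm38 (mm10), because the way reads can be assigned bears on its count. Wdfy1 (ENSMUSG00000073643) lies on chromosome 1 from 79702262 to 79776143 on the minus strand, 91.9 Mb from Cd48. The annotation holds 14 transcripts of it. The 4 longest have 12 exons and 4551 bases each, and they are a single sequence: they differ only in which of 2 places in the reference each of exons 4 to 6 is taken from. These 3 coding exons stand at 2 places of the reference with identical letters, 7442 bases apart, and make up 319 bases (7.01%) of the transcript. They are shown because a read lying wholly within 1 of them matches 2 places of the same gene, and how such reads were counted is not given in the sources used here. Each is given on the coding strand, 5′ to 3′, in lower case throughout since no letter differs between the copies:

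Wdfy1 exon 4 (chr1:79729656-79729710 and chr1:79722214-79722268, minus strand): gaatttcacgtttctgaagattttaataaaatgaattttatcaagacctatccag

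Wdfy1 exon 5 (chr1:79726566-79726716 and chr1:79719124-79719274, minus strand): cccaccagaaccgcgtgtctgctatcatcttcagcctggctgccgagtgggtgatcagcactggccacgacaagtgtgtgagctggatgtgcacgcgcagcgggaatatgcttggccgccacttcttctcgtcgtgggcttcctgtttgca

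Wdfy1 exon 6 (chr1:79724645-79724757 and chr1:79717203-79717315, minus strand): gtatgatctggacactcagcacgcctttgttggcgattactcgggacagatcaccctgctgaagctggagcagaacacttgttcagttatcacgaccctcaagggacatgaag

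Of the 14 transcripts, 1 (a 7-exon form of 914 bases) reaches into Mrpl44, the gene of a mitochondrial ribosomal protein on the opposite strand, and overlaps it by 126 bases. The full-length transcripts start 14.2 kb away from the start of Mrpl44. Whether the authors counted reads by strand is not given, so reads from those 126 bases cannot be assigned with certainty.

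Fn3krp (ENSMUSG00000039253) lies on chromosome 11 from 121421401 to 121431288 on the plus strand and has 1 annotated transcript of 2520 bases. Fn3k follows it on the same strand after 3.6 kb (121434913 to 121450491). The coding sequences of both genes, 927 bases each, were identical at 618 of 919 aligned bases (67.2%). The longest run shared by their transcripts was 18 bases, and 0 windows of 75 bases were shared. The most alike 60 bases of the alignment, coding bases 820 to 879 in each gene, are shown to give the scale of the difference, with the 11 bases that differ in capitals:

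Fn3krp: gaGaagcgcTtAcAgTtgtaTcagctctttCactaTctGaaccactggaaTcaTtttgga

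Fn3k: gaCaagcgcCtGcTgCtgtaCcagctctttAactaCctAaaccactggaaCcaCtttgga

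All 6 deposited values of Fn3krp were whole numbers, and those of Wdfy1 were whole within 0.001. For comparison, 60.2% of all non-zero values of the table were whole within that tolerance.

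Wdfy1 had estimated counts of 122, 136 and 267 in WT1, WT2 and WT3, and of 787.0, 732.0 and 810.0 in KO1, KO2 and KO3. Scaled to library size, the levels were 8.52, 9.08 and 9.58 CPM for WT and 48.1, 45.0 and 45.7 CPM for KO. Each KO library lay far above each WT library, with no overlap. The means were 9.06 ± 0.532 for WT and 46.3 ± 1.597 for KO (CPM ± SD, n = 3), a ratio of 5.11. The log2 fold change in edgeR's fit was 2.35 (SE 0.13). Since this contrast chose the gene, the change is a description and no test is given. The measurement is of bulk RNA, in which fewer cells of a type and less RNA per cell cannot be told apart.

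Fn3krp had estimated counts of 10, 7 and 17 in WT1, WT2 and WT3, close to the limit of what these libraries can count. In KO1, KO2 and KO3 it had 192, 190 and 169. Scaled, these were 0.698, 0.467 and 0.610 CPM for WT and 11.7, 11.7 and 9.54 CPM for KO. Fn3krp was thus near absence in each WT library and plainly present in each KO library. The means were 0.592 ± 0.117 for WT and 10.98 ± 1.25 for KO (CPM ± SD, n = 3), a ratio of 18.6. The log2 fold change was 4.19 (SE 0.25), again a description without a test. Summed over the group, the 34 WT counts have an exact 95% Poisson interval of 23.6 to 47.5, or 0.411 to 0.829 per 1000000 deposited counts. The 551 KO counts give 10.1 to 11.96 on that scale. These intervals cover counting error only: the reads carry no molecular identifiers, so PCR copies of 1 molecule count separately.

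**Figure D1:**
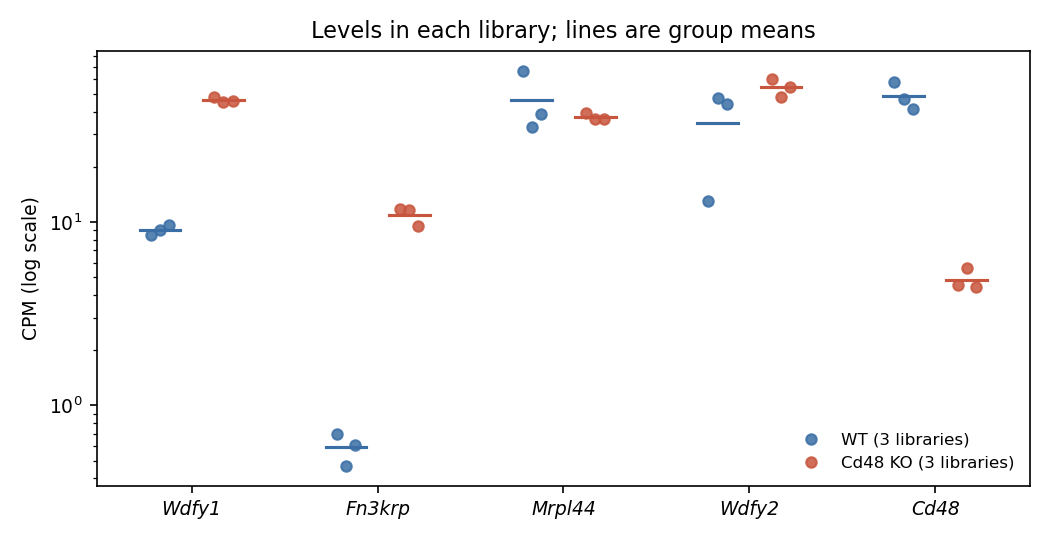
Levels in CPM (log axis) of Wdfy1, Fn3krp, Mrpl44, Wdfy2 and Cd48, with 1 point per library (WT blue, Cd48 KO red, 3 libraries each) and a line at each group mean. Wdfy1 sits at 8.52 to 9.58 CPM in WT and 45.0 to 48.1 CPM in KO. Fn3krp sits at 0.467 to 0.698 CPM in WT and 9.54 to 11.7 CPM in KO. The groups of Mrpl44 overlap, and those of each other gene shown do not, as for 19.3% of all tested genes.

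Per kilobase of longest transcript, the scale on which genes can be compared, the level of Wdfy1 was 1.99 ± 0.117 CPM per kb in WT and 10.2 ± 0.351 in KO (SD, n = 3). That of Fn3krp was 0.235 ± 0.0463 in WT and 4.36 ± 0.496 in KO (SD, n = 3). Wdfy1 was therefore the higher of the pair in both genotypes. Among the genes with a known length, the Wdfy1 level stood above 42.7% to 43.3% of genes in the WT libraries and above 66.4% to 67.0% in the KO libraries. Fn3krp moved from above 16.3% to 22.3% of genes in WT to above 51.3% to 54.0% in KO. The place among genes depends on the length used. With the median length of the annotated transcripts of each gene, an alternative chosen after seeing the data, Wdfy1 (710.5 bases) stood above 58.4% to 59.2% of genes in WT and above 81.6% to 82.3% in KO. Fn3krp then stood above 13.5% to 20.1% in WT and above 44.3% to 46.5% in KO. Under both lengths each gene stood higher in every KO library than in every WT library, as its CPM does.

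The spread within a genotype was low for both genes in WT, and in KO it was low for Wdfy1 and ordinary for Fn3krp. Both genes were chosen for differences nearly as off and on in these libraries, a choice that favours a low spread. The WT medians also include WT1, which stood apart, so the comparison is a description only. On the log2 CPM scale the SD of Wdfy1 was 0.0840 in WT, where the median SD of 1170 tested genes within 0.5 log2 units of its level was 0.343, and 4.4% of them had a lower one. In KO its SD was 0.0493, beside a median of 0.0960 over 2197 genes of like level, of which 18.2% had a lower one. For Fn3krp the SD was 0.246 in WT and 0.168 in KO, beside medians of 0.831 and 0.176. Of the genes of like level, 8.6% had a lower SD than Fn3krp in WT and 47.5% in KO. WT1, which stood apart from the other libraries over all genes, differed from WT2 and WT3 by -0.13 (log2) for Wdfy1, beside a median of -0.26 for 1821 genes with transcripts of 4000 to 5000 bases. For Fn3krp the difference was 0.32, beside a median of 0.11 for 2651 genes of 2000 to 3000 bases. Without WT1 the log2 fold changes were 2.31 (SE 0.12) for Wdfy1 and 4.29 (SE 0.29) for Fn3krp.

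Over all 13317 tested genes, the quasi-likelihood test of edgeR, adjusted by Benjamini and Hochberg's method (BH), called 4 (0.03%) at an adjusted p under 0.05. Of these, 2 were higher in KO (0.015%) and 2 lower (0.015%). The higher ones are Wdfy1 and Fn3krp, from which nothing is read, since this contrast chose them. All 3 KO libraries lay above all 3 WT libraries for 10.2% of tested genes, and the groups did not overlap, in either direction, for 19.3%, so that ordering alone sets neither gene apart. Among the 9768 tested genes whose mean reached 5 CPM, Fn3krp had the largest rise and Wdfy1 the second largest. The next, given once to show the gap, was Egln3, an oxygen-sensing prolyl hydroxylase, with a log2 fold change of 1.68 (SE 0.35). Egln3 was at 2.10, 3.67 and 4.84 CPM in the WT libraries and at 12.2, 13.9 and 8.30 CPM in the KO libraries. By absolute change Fn3krp ranked 2 and Wdfy1 14, behind genes that were lower in KO.

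**Figure D2:**
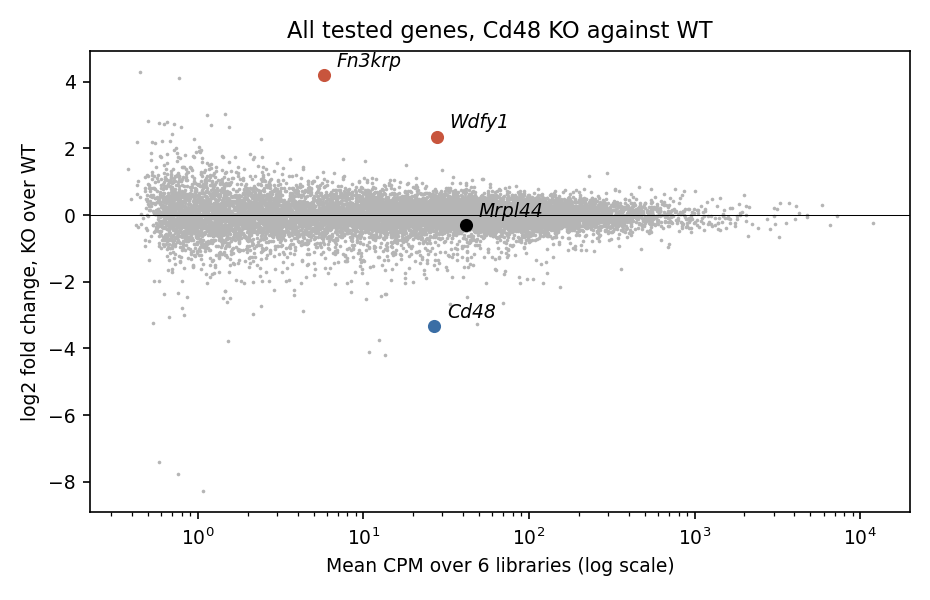
Log2 fold change (KO over WT, edgeR) against mean CPM over the 6 libraries (log axis) for all 13317 tested genes in grey, with Wdfy1, Fn3krp, Cd48 and Mrpl44 marked. At their levels Fn3krp (4.19) and Wdfy1 (2.35) are the highest points of the cloud, Cd48 (-3.33) lies among the lowest and Mrpl44 (-0.30) lies within it.

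No tested gene within 1 Mb of Wdfy1 or Fn3krp passed the test with all libraries. Mrpl44, next to Wdfy1, was at 67.0, 33.0 and 38.6 CPM in the WT libraries and at 39.3, 36.3 and 36.6 CPM in the KO libraries, with WT1 the one high library. Its log2 fold change was -0.30 (SE 0.27, adjusted p 0.714, edgeR, BH), and 0.06 (SE 0.11) without WT1. The ratio of Wdfy1 to Mrpl44, both per kilobase, was 0.0398, 0.0860 and 0.0777 in the WT libraries and 0.382, 0.388 and 0.391 in the KO libraries. Within 1 Mb of Wdfy1, edgeR, DESeq2 and limma-voom called 0 of 10 tested genes besides it, beside 0.03%, 0.811% and 0.751% of all tested genes. Of these 10 neighbours of Wdfy1, 1 had an unadjusted p under 0.05 in edgeR, beside 6.89% of all tested genes. On one side of it Ap1s3, an adaptor subunit of vesicle coats, had a log2 fold change of -0.46, the pseudogene Gm6159 one of 0.12, and Acsl3, which activates fatty acids, one of 0.46 (unadjusted p 0.0219, adjusted p 0.690, edgeR, BH). On the other side Serpine2, a protease inhibitor, had 0.07 and the pseudogene Gm5529 -0.35. Without WT1, Ap1s3 had 0.0504, Gm6159 -0.0081, Serpine2 0.45 and Gm5529 -0.0726.

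Around Fn3krp, edgeR called 0 of 40 tested genes within 1 Mb, beside 0.03% of all tested genes. Of the 40, 2 had an unadjusted p under 0.05, beside 6.89% of all tested genes. The median log2 fold change of the 40 was -0.01, and that of all tested genes -0.0039. Upstream, the autophagy gene Wdr45b, the forkhead factor gene Foxk2 and Narf had 0.25, -0.996 and 0.24. Downstream, past Fn3k, the tubulin cofactor gene Tbcd, Zfp750 and B3gntl1 had 0.30, 0.88 and 0.08. None of these 6 passed the test. Without WT1, Wdr45b had 0.10, Foxk2 -0.10, Narf 0.13, Tbcd 0.0896 and B3gntl1 -0.0187, and without WT2 Zfp750 had 1.94. In the fit without WT1, which called 1.82% of 13643 genes (1.17% higher and 0.652% lower in KO), 1 neighbour passed: Slc16a3, the lactate exporter MCT4, which lies upstream at -460.5 kb. It was at 139.2, 146.9 and 129.2 CPM in the WT libraries and at 205.8, 228.6 and 208.3 CPM in the KO libraries, a log2 fold change without WT1 of 0.64 (SE 0.08, adjusted p 0.00138, edgeR, BH). With all 6 libraries, DESeq2 (0.811% of genes called, 0.421% higher and 0.39% lower) and limma-voom with quality weights per sample (0.751% called, 0.421% higher and 0.33% lower) called Slc16a3 too.

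**Figure D3:**
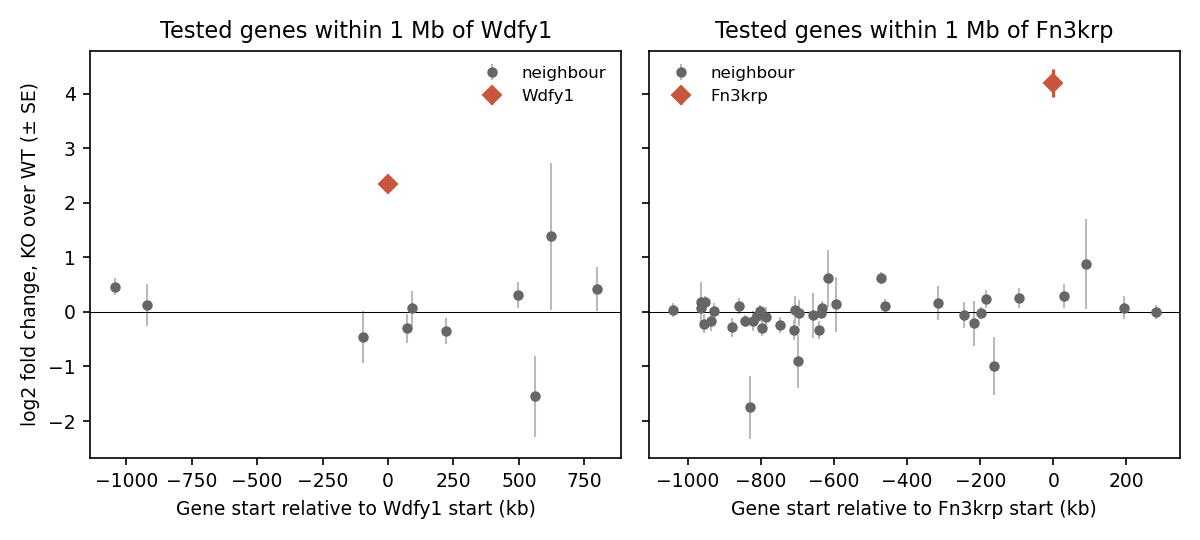
Log2 fold change (KO over WT, edgeR, bars ± SE) of each tested gene within 1 Mb of Wdfy1 (left, 10 genes) and Fn3krp (right, 40 genes) against the distance in kb between the lowest coordinates of the genes. Wdfy1 (2.35) and Fn3krp (4.19) stand above all of their neighbours, which lie between -1.75 and 1.39.

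The 250 bases before the RefSeq start of Fn3krp are shown because the transcript moved between near absence and a middling level (GRCm38.p6, chr11:121421123-121421372, plus strand, 5′ to 3′). Capitals mark the single CCAAT and the single GGGCGG, the latter read on the minus strand:

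Fn3krp promoter: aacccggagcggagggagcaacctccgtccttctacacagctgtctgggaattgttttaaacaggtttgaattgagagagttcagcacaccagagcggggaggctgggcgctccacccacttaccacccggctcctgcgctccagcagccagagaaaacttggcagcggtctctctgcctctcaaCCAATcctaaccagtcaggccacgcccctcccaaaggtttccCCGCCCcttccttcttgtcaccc

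CCAAT begins 65 bases before the start site and was found, on either strand, in 33.9% of 32841 windows of the same length. The GC box GGGCGG ends 18 bases before the start site and was found in 32.7%. TATAAA (12.4% of windows), the interferon-response core (GAAA, any 2 bases, GAAA; 3.0%), TGACGTCA (1.5%) and CACGTG (6.0%) had 0 matches here. No 2 of the matches overlap. The window has 58.8% G and C (median of all windows 52.4%) and 10 CpG dinucleotides (median 6). A match is only a match of letters. Of the 3 genes, 1 had an entry in the promoter table, which is Fn3krp.

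Of the 3 relatives of Wdfy1, edgeR, DESeq2 and limma-voom called 0, beside 0.03%, 0.811% and 0.751% of all tested genes. In edgeR 0 had an unadjusted p under 0.05, beside 6.89% of all tested genes. Wdfy2, the closest in domain structure (64.8% of 1200 aligned coding bases identical), was at 13.1, 47.4 and 43.9 CPM in the WT libraries and at 60.6, 47.9 and 54.2 CPM in the KO libraries. The groups of Wdfy2 did not overlap, by a narrow margin (47.4 CPM in WT2 and 47.9 CPM in KO2), as for 19.3% of all tested genes. Its WT1 library lay far below the others, and its log2 fold change was 0.64 (SE 0.44, adjusted p 0.693, edgeR, BH), or 0.25 (SE 0.11) without WT1. Wdfy3, a scaffold of selective autophagy, was at 6.53 ± 2.76 in WT and 7.56 ± 3.02 in KO (mean CPM ± SD, n = 3). Wdfy4, known for cross-presentation by dendritic cells, was at 1.19 ± 1.07 and 1.08 ± 0.773 (mean CPM ± SD, n = 3). The log2 fold changes of Wdfy3 and Wdfy4 were 0.21 and -0.19, and without WT1 -0.0920 and -0.75. Per kilobase, Wdfy1 stood at 0.280 and 0.319 times the level of Wdfy2 in WT2 and WT3, at 0.953 times in WT1, and at 1.16, 1.37 and 1.23 times in KO1, KO2 and KO3. These ratios also depend on the length. With median transcript lengths Wdfy1 stood at 4.46, 1.31 and 1.495 times the level of Wdfy2 in WT1, WT2 and WT3 and at 5.43, 6.43 and 5.78 times in KO1, KO2 and KO3, so no order of the pair in WT is read from these data.

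A wider list took in endosomal TLRs, their chaperones and adaptors, and TRIF signalling. Not all of its genes are known to work with WDFY1. Of 28 listed genes 23 were tested. edgeR called 0, beside 0.03% of all tested genes, and 1 had an unadjusted p under 0.05, beside 6.89%. DESeq2 and limma-voom called 0, beside 0.811% and 0.751%. With so few calls over all genes, 0 calls in such a list does not show an unchanged pathway. The median log2 fold change of the tested genes of the list was 0.01. The TLR chaperone gene Hsp90b1, the nucleosome assembly gene Nap1l1 (not the TBK1 adaptor known as NAP1) and the kinase genes Tbk1 and Ripk1 were the most abundant, with log2 fold changes of -0.02, 0.01, 0.06 and 0.27. Without WT1 they had -0.0391, 0.0336, 0.0483 and 0.0238. Ticam1, which encodes TRIF, was at 21.04 ± 5.24 in WT and 25.1 ± 4.54 in KO (mean CPM ± SD, n = 3). Of the receptors, Tlr3 was at 0.295 ± 0.257 and 0.496 ± 0.0104 CPM and was too low to be tested. Tlr4 was at 5.54 ± 2.16 and 3.04 ± 0.859 (mean CPM ± SD, n = 3), and its estimated log2 fold change was -0.86 (SE 0.36, adjusted p 0.690, edgeR, BH), and -0.50 without WT1. Ticam1, Tlr3 and Tlr4 were named for their place in the pathway, outside the rule for named genes. Of these receptors, Tlr3 was thus barely detectable in both genotypes.

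Genes listed as targets of TRIF and the transcription factor IRF3 were counted next. Whether their levels reflect signalling through TRIF was not tested. Of 16 listed genes 9 were tested, and edgeR called 0 of them, beside 0.03% of all tested genes. An unadjusted p under 0.05 was found for 3 (Usp18, Isg15 and Isg20), all lower in KO, beside 6.89% of all tested genes. Of the 9, 3 had positive log2 fold changes, and the median was -0.61, or -0.40 over 10 tested genes without WT1. Usp18, which removes the ubiquitin-like ISG15, was at 15.5 ± 4.38 in WT and 7.97 ± 0.673 in KO (mean CPM ± SD, n = 3). Ifit2 was at 4.20 ± 2.62 and 7.92 ± 1.13 CPM and Ccl5 at 3.31 ± 2.42 and 2.41 ± 1.19 (mean CPM ± SD, n = 3). Their log2 fold changes were 0.91 and -0.46, and without WT1 0.50 and -0.88. Isg20, an RNA exonuclease, was at 11.03, 8.945 and 11.09 CPM in the WT libraries and at 3.603, 4.98 and 5.25 CPM in the KO libraries. Its groups did not overlap, as for 19.3% of all tested genes. Nor did those of Isg15, Usp18 and Cmpk2, lower in KO, or of Cxcl10 and Ifit2, higher in KO. edgeR gave Isg20 a log2 fold change of -1.17 (SE 0.22, adjusted p 0.555, edgeR, BH). Isg20 was called lower by DESeq2 and limma-voom on all libraries, and by edgeR without WT1 (log2 fold change -1.12, adjusted p 0.0277, BH). These 3 fits called 0.39%, 0.33% and 0.652% of tested genes lower. No listed gene was called higher in those fits.

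Other FYVE domain and phosphatidylinositol 3-phosphate genes of the endosome were then counted. All 30 members that had a column were tested, of 32 listed. edgeR, DESeq2 and limma-voom called 0, beside 0.03%, 0.811% and 0.751% of all tested genes. In edgeR 2 had an unadjusted p under 0.05, beside 6.89% of all tested genes. The median log2 fold change of the list was 0.04, or 0.08 without WT1. The most abundant were the late endosome GTPase gene Rab7 (-0.15), the lipid kinase cofactor gene Becn1 (-0.18), the lipid phosphatase gene Mtmr3 (0.07) and Ankfy1 (0.61). Without WT1, Rab7 had 0.0329, Becn1 -0.0059, Mtmr3 -0.17 and Ankfy1 0.21.

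A list built around glycation repair and the handling of reactive dicarbonyls was counted next. Not all of its genes act in either. All 24 listed genes were tested. edgeR called 0, beside 0.03% of all tested genes, and 1 had an unadjusted p under 0.05, beside 6.89%. DESeq2 and limma-voom called 0, beside 0.811% and 0.751%. With so few calls over all genes, 0 calls in a list of this size shows neither change nor its absence. The median log2 fold change of the list was -0.06, or 0.01 without WT1. Esd, which completes glutathione-dependent formaldehyde removal, was at 1123 ± 337 in WT and 786.7 ± 15.9 in KO (mean CPM ± SD, n = 3), and edgeR gave it a log2 fold change of -0.51 (SE 0.21, adjusted p 0.690, edgeR, BH). Without WT1 the log2 fold change of Esd was -0.24 (adjusted p 0.0338, edgeR, BH), in a fit that called 0.652% of tested genes lower. The oligosaccharyltransferase subunit gene Ddost, which also encodes a receptor for glycated proteins, had 0.0094, the aldehyde reductase gene Akr1a1 -0.0046 and the pentose phosphate gene Tkt 0.02. Without WT1, Ddost had 0.0809 and Akr1a1 -0.0852.

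**Figure D4:**
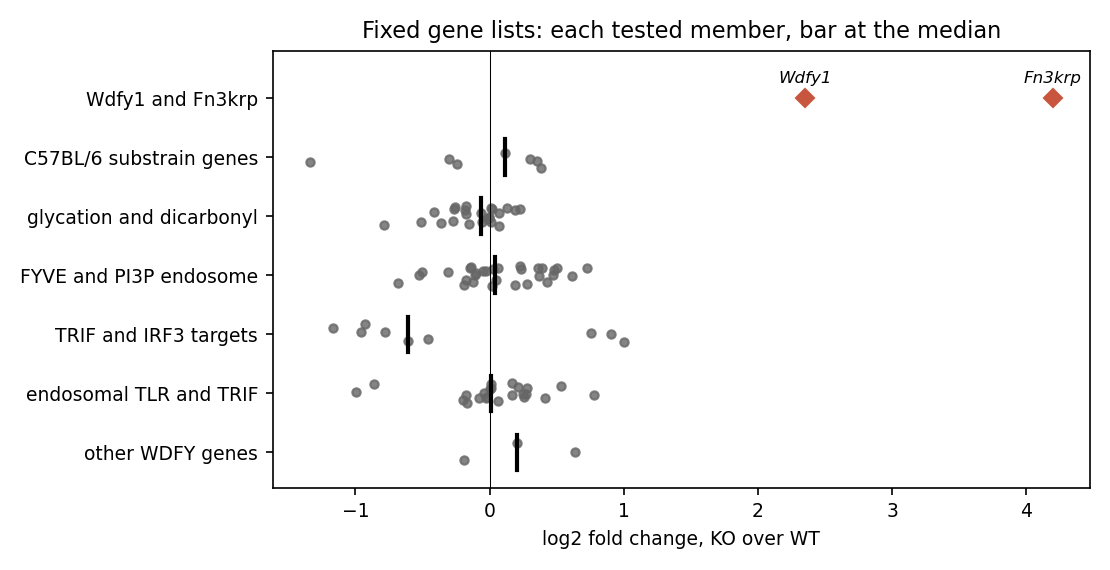
Log2 fold change (KO over WT, edgeR) of each tested member of the 6 gene lists, 1 point per gene with vertical jitter only to part them and a bar at each list's median, with Wdfy1 and Fn3krp as diamonds above. List medians lie between -0.61 and 0.21, and single genes between -1.34 and 0.998, below the 2.35 of Wdfy1 and the 4.19 of Fn3krp.

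Since the strain label names no substrain, genes known to differ between C57BL/6 substrains in sequence or expression were listed, and 7 of 9 were tested. edgeR, DESeq2 and limma-voom called 0, beside 0.03%, 0.811% and 0.751% of all tested genes. In edgeR 2 (Ipo11 and Entpd4b) had an unadjusted p under 0.05, beside 6.89% of all tested genes. The groups did not overlap for Ipo11, Entpd4 and Entpd4b, as for 19.3% of all tested genes. Nnt, the mitochondrial transhydrogenase that C57BL/6J lacks in part, was at 20.7, 24.7 and 33.3 CPM in the WT libraries and at 33.7, 30.9 and 36.1 CPM in the KO libraries, and the groups overlapped. Its log2 fold change was 0.35 (SE 0.20, adjusted p 0.690, edgeR, BH), and 0.20 without WT1. Ide, Cyfip2 and Ipo11 had log2 fold changes of 0.12, 0.30 and 0.39, and without WT1 of -0.0228, 0.0017 and 0.30. Entpd4 and Entpd4b, close copies whose reads cannot be told apart with certainty, had -0.24 and -0.30, and Fgfbp3 had -1.34 at 1.78 ± 0.851 and 0.690 ± 0.333 (mean CPM ± SD, n = 3). Genotype, any substrain difference between WT and KO mice and any sequence kept from the allele's donor strain cannot be told apart in this design.

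Among 9306 genes, those whose log2 CPM ran most like that of Wdfy1 and Fn3krp over the 6 libraries were found by Pearson's r. The points share libraries and genotype, so r is a description. Each was the other's closest match (r = 0.994). Both were chosen for large differences between the genotypes in these same libraries. A high r between them was thus built into the choice, and nothing is read from it. For Wdfy1 the next were Ect2, a cytokinesis factor (0.986), Rad18, a ubiquitin ligase of DNA repair (0.985), Dgat1, which makes triglyceride (0.985), and Pigc, which starts GPI anchor synthesis (0.984). For Fn3krp they were the acid-sensing channel gene Asic3 (0.989), Tnfrsf8, which encodes CD30 (0.983), Rad18 (0.983) and the glycosyltransferase gene Mgat4a (0.980). Their sizes of change were far smaller. Asic3 was at 5.52, 4.41 and 4.59 CPM in the WT libraries and at 10.99, 10.3 and 9.31 CPM in the KO libraries, a log2 fold change of 1.08 (SE 0.19). Tnfrsf8 was at 134.1, 115.5 and 118.0 CPM in the WT libraries and at 193.0, 197.9 and 206.6 CPM in the KO libraries (0.70, SE 0.11). Ect2, Pigc, Dgat1, Rad18 and Mgat4a had log2 fold changes of 0.51, 0.37, 0.34, 0.26 and 0.25. The groups of these 7 genes did not overlap, as for 19.3% of tested genes. Apart from Wdfy1 and Fn3krp, these genes lie on chromosomes 1, 3, 4, 5, 6 and 15.

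The size of the change of Wdfy1 and Fn3krp moved little between the fits that were run. These fits reuse the libraries by which both genes were chosen, so this is a description and adds no support. The log2 fold change of Wdfy1 ran from 2.30 to 2.40 over 13 alternatives, and that of Fn3krp from 4.07 to 4.29 over the 12 that kept it. Keeping only genes whose mean reaches 10 CPM removes Fn3krp.

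**Figure D5:**
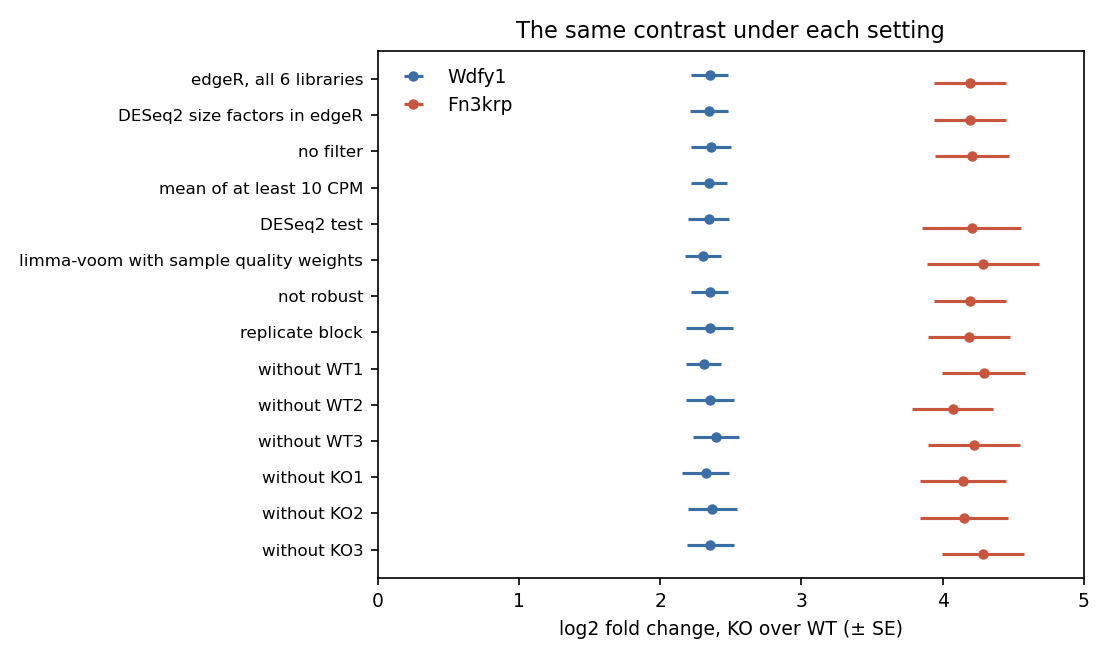
Log2 fold change (KO over WT, bars ± SE) of Wdfy1 (blue) and Fn3krp (red) with all 6 libraries in edgeR and under each alternative fit. Wdfy1 stays between 2.30 and 2.40 and Fn3krp between 4.07 and 4.29. Fn3krp has no point where its mean is below the 10 CPM filter. All fits reuse the libraries by which both genes were chosen.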

How the data were processed

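RNA of 6 samples (3 WT, 3 Cd48 KO, grouped by title) was read as 1 table; per the labels, cDNA was amplified from 10 pg of RNA by a SMARTer low-input kit. The authors deposited estimated counts, some of them fractional. These were taken as not scaled, since their totals were unequal and 60.2% of non-zero values were whole within 0.001. They were rounded to whole numbers here. Partek 10.0, STAR 2.7.8, DESeq2 and mm10 stand in the submitters' processing notes without roles. The sources used here do not give the gene counter, the annotation or the use of strand. Symbols were matched to GENCODE M21 (GRCm38, 17022 of 17438). All genes were fitted with edgeR 4.0.16 (R 4.3.3, TMM, filterByExpr with a minimum count of 10 and total of 15, robust quasi-likelihood, genotype only, BH over all tested genes). The SE divides the log2 fold change by the root of F, and CPM uses TMM-adjusted library sizes. DESeq2 1.42.0 and limma 3.58.1 were alternatives. Coding sequences were aligned globally with Biopython 1.88. The scripts were tested on simulated data. No replicate pair agreed within sampling noise (chi-square per degree of freedom 5.51 to 154).

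The members and lists were chosen with earlier results of these data known. Named genes are the members, Cd48, Mrpl44, the Wdfy relatives, the 3 nearest tested genes to each side, up to 4 called or otherwise the 4 most abundant genes of each list, all tested substrain genes, and the 5 genes most like each member with a mean of at least 5 CPM (prior count 2, predicted genes left out). Egln3, Slc16a3, Isg15, Cd3g, Epcam, Trac, Il2ra, Il5, Pecam1, Vwf, Cd79b and Cd79a were named after their values were seen.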

Additional observations from a re-analysis of the deposited data

How the results depend on the processing

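With all 6 libraries edgeR called 4 genes. DESeq2 called 108 and limma-voom 100; leaving out 1 library gave 0 to 248. It gave 248 without WT1, 0 without KO1 and 0 without KO3, and 4 without each of the others. The replicate block called 0; the numbers did not pair the samples (r of deviations -0.046, -0.036 and -0.0091 for numbers 1, 2 and 3, and not every sample correlated best with its own number). TRIF and IRF3 targets had 1 call (Isg20) in DESeq2 and 1 in limma-voom, and neighbours of Fn3krp 1 (Slc16a3) in each; leaving out 1 library gave 0 to 1 for both and for the glycation list (Esd). These single calls came without WT1. With all libraries, windows of 0.5 and 5 Mb changed no count of neighbours called. With the median transcript length the level of Wdfy1 was 12.8 CPM per kb in WT and 65.1 in KO; a scaling by protein length was not run. Mrpl44 had a log2 fold change of 0.0414 in limma-voom, where Wdfy3 had -0.20, Rab7 0.0112 and Mtmr3 -0.18. Akr1a1 had 0.0077 without a filter and 0.0007 with the replicate block. Over the fits that leave out 1 library, genes that changed sign ran from -0.49 to 0.0607 (Mrpl44), -0.16 to 0.45 (Wdfy3), -0.92 to 0.48 (Wdfy4), -0.0384 to 0.22 (B3gntl1), -0.0299 to 0.39 (Gm6159), -0.74 to 0.0504 (Ap1s3), -0.14 to 0.45 (Serpine2), -0.25 to 0.0329 (Rab7), -0.17 to 0.22 (Mtmr3), -0.89 to 0.17 (Ccl5), -0.0686 to 0.0081 (Hsp90b1), -0.0217 to 0.0341 (Nap1l1), -0.0228 to 0.31 (Ide), -0.0497 to 0.0809 (Ddost) and -0.0852 to 0.052 (Akr1a1). None of these genes was called with all libraries, and the cause was not tested. Fn3krp in WT rests on 34 counts, so depth limits its level there more than its level in KO.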
